A study of Mus musculus with 16 samples.

Results

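Basal cells of the interfollicular epidermis (IFE), the epidermis between hair follicles, were profiled from mouse tail skin 4 weeks after SmoM2, an activated transducer of the hedgehog signal, was switched on while β-catenin was deleted. The 2 arrays of these cells were chosen by their titles and set against the 3 arrays of untreated IFE, so 5 of the series' 16 arrays form the comparison. The question it addresses is what remains changed when SmoM2 acts without β-catenin. The cells with β-catenin loss came from tamoxifen-treated mice carrying K14CREER and Rosa-SmoM2-YFP together with b-cat flox/flox, and were sorted as SmoM2-positive. The untreated controls came from K14CREER/Rosa-SmoM2-YFP mice, so they carry the same Cre and the same silent SmoM2 allele but no floxed β-catenin, and they received no tamoxifen. A further group, the 3 arrays of SmoM2-positive IFE cells 4 weeks after tamoxifen in K14CREER/Rosa-SmoM2-YFP mice, gives the effect of SmoM2 with β-catenin present. The strain background of all 3 groups is given as mixed, and ages are not given in the labels. The keratin 14 promoter drives the tamoxifen-inducible Cre, so recombination can occur in basal cells of the epidermis and of the follicles alike, and the labels give the sorted cells as interfollicular. No group has β-catenin deleted without SmoM2, so the loss of β-catenin by itself cannot be told apart from its loss in SmoM2 cells. Tamoxifen, selection for SmoM2-positive cells and the flox alleles also differ from the controls together. On a mixed strain background other alleles may differ between the groups as well, and these cannot be told apart from β-catenin loss.

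In hedgehog signalling, the ligand binds the receptor Patched, which releases Smoothened, and Smoothened turns on the Gli transcription factors. SmoM2 is a mutant Smoothened that signals without ligand, as mutations of this pathway do in basal cell carcinoma. β-catenin has a pair of roles: it joins cadherins to the cytoskeleton at cell junctions, and it carries the Wnt signal to Lef/Tcf factors in the nucleus, which in skin drive the embryonic hair placode and the differentiation of hair.

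RNA was hybridised to Affymetrix 3′ arrays, and all values are log2 signals as deposited. A difference is a difference of log2 means ± its standard error, where 1 unit is a 2-fold change, and genes were called at a Benjamini-Hochberg adjusted p under 0.05 in limma, over 14285 genes tested. Separate animals are not stated for the replicates, which may also be pools. Each p-value therefore covers the spread among these arrays, and the technical part of that spread is not known. On the first principal component of the 14 IFE arrays the loss replicates lay at -18.3 and -9.53, between the controls (-37.7 to -28.9) and SmoM2 alone (21.5 to 56.6). Mean Y-linked signal was 3.55, 7.26 and 3.61 in the controls, 7.30, 6.75 and 5.52 in SmoM2 cells that kept β-catenin, and 3.59 and 6.17 in those that lost it, so this signal was unevenly spread over the groups, and its part in the results was tested only as a covariate. Xist, an RNA of female cells, read 11.11, 7.82 and 11.37 in the controls. It read 6.50, 8.12 and 12.52 with SmoM2 alone and 11.25 and 12.43 with loss. Loss replicate 2 and SmoM2 replicate 3 had high signal of both kinds. Both signals differed between arrays of a group, so these arrays do not all repeat the same material. The 6 basal keratinocyte markers averaged 12.19 and 12.60 in the loss arrays and 12.62 to 12.72 in the controls, with Krt14 at 13.82 and 13.89, so the defining markers of the labelled cell type were present.

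The targeted gene itself was measured first. Ctnnb1, which encodes β-catenin, read 13.04, 12.76 and 12.77 in the controls, 13.65, 13.21 and 13.26 with SmoM2 alone and 12.76 and 12.93 in the loss arrays. The loss arrays overlapped the control range, and the difference of -0.01 ± 0.21 had a 95% interval of -0.46 to 0.44 and an adjusted p of 0.987. Loss minus control was 1.23 and 0.41 on the remaining 2 Ctnnb1 probe sets. The sources used here do not place these probes against the floxed exons, and a probe outside the deleted part still reads the transcript, so the values do not check the deletion. Jup, which encodes plakoglobin, the close relative of β-catenin at junctions, differed by -0.19 ± 0.46 from control (adjusted p = 0.866).

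Against the controls, 53 genes changed with β-catenin loss, which is 0.371% of the genes tested: 33 rose (0.231%) and 20 fell (0.140%). At these shares, 0 calls against control in any gene list below is near the share over all genes. The largest falls were in a pair of hair-type keratins, Krt84 and Krt36, and the largest rise was in Ang, which encodes the ribonuclease angiogenin. Of the 53 genes, 52 changed at least 2-fold, and in all 53 the loss arrays lay wholly above or wholly below the 3 control arrays, as 33.7% of all tested genes did. At an unadjusted p under 0.05 there were 877 genes higher and 1212 lower, and the median difference over all genes was -0.12. By comparison, 463 genes (3.24%) were called with SmoM2 alone at 4 weeks against the same controls, 349 higher (2.44%) and 114 lower (0.798%), which became 132, 13 and 49 without control replicates 1, 2 and 3 and 139 and 237 without SmoM2 replicates 1 and 2. Same-numbered SmoM2 and control arrays deviated together, and a fit blocked on that number called 873 genes there, 558 higher (3.91%) and 315 lower (2.21%). The count of 53 also moved with single arrays. Leaving out control replicates 1, 2 and 3 in turn gave 6, 9 and 1 calls, of which 5, 7 and 0 were among the 53. Without loss replicate 1 or 2 a single loss array remains, and the median difference over all genes was then -0.17 or -0.05. With the mean Y-linked signal as a covariate the count was 10, and with quantile normalization the split moved to 25 higher and 42 lower. Using only the 5 arrays compared it was 72, 23 higher and 49 lower, and 26 of these were among the 53. In 9 of the 33 genes that rose, all 3 controls lay under the filter level, which a gene had to exceed in at least 2 arrays to be tested (4.88 to 5.01 on these arrays). Of these, 7 exceeded it in the 2 loss arrays and in no other array, so they entered the test through the group in which they were high. Tnnt2, Acot5 and Zfp874a, named below, are among these 7. Without that filter 31 genes rose and 22 fell. Where a whole group lay under this level, "at least" gives the fold against the level itself in place of the measured values.

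**Figure D1:**
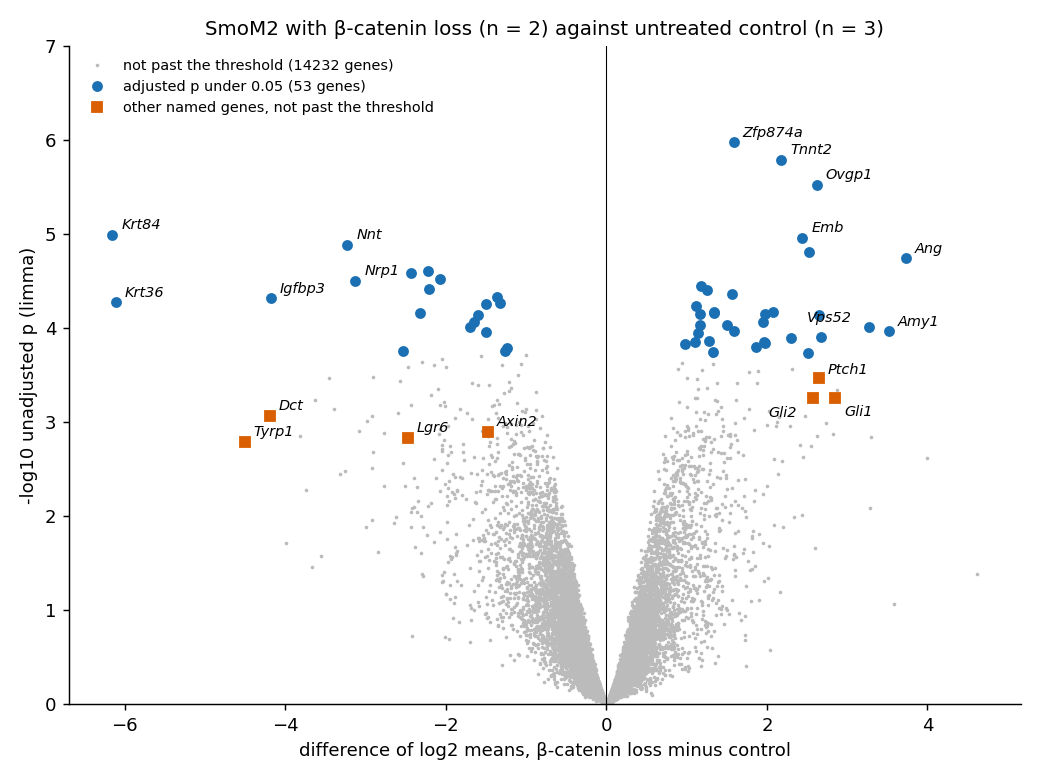
Each point is one of 14285 genes, with the difference of log2 means (β-catenin loss minus control) on the x axis and the -log10 unadjusted p of limma on the y axis. Blue points are the 53 genes past the adjusted threshold, with Krt84 and Krt36 farthest to the left and Ang farthest to the right among them; orange squares are hedgehog, Wnt and melanocyte genes that did not pass.

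Krt84 and Krt36 are keratins of the hair type, and Krt36 marks the scale regions of mouse tail epidermis. Krt84 read 12.51, 12.92 and 12.30 in the controls and 6.62 and 6.23 in the loss arrays. It fell by 6.15 ± 0.83 on the log2 scale, a 71.2-fold difference (adjusted p = 0.0310). Both loss arrays lay far below every control. Krt36 read 13.22, 13.08 and 12.87 in the controls and 7.17 and 6.71 with β-catenin loss, a difference of -6.11 ± 0.98 or 69.1-fold (adjusted p = 0.0346). SmoM2 alone had 8.24, 7.18 and 9.84 for Krt84 and 9.36, 6.77 and 10.56 for Krt36, also below all controls, and the test between loss and SmoM2 alone gave -1.99 ± 0.83 (adjusted p = 0.246) and -1.95 ± 0.98 (adjusted p = 0.346). A further fall beyond that of SmoM2 alone was not resolved. Both calls were lost whichever 1 of the 5 arrays was left out, with differences of -6.35 to -5.88.

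Because these genes fell side by side, the 250 bases before the start of each are shown from RefSeq (GRCm38.p6). Krt84 lies at chr15:101532821-101533070 and Krt36 at chr11:100105627-100105876, both on the minus strand, and each is written 5′ to 3′ along its gene. Capitals mark TATAA, the core of the TATA box, or its reverse complement TTATA.
Krt84: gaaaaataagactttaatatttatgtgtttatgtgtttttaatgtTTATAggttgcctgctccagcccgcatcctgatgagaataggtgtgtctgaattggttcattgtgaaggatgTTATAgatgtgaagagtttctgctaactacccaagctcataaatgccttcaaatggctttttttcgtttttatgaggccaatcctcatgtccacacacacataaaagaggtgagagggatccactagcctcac
Krt36: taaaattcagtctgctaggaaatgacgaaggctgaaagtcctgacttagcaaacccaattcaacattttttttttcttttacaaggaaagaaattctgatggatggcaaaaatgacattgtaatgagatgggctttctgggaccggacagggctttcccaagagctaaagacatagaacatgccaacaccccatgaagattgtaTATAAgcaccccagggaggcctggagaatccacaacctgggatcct
The motif was found in 2 places in the Krt84 window, each on the opposite strand, and in 1 place in the Krt36 window, on the gene's own strand. It was found on either strand in 22.8% of the 32851 promoter windows of this length. A match describes the letters only.

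The rest of the hair keratin list had smaller differences. Of its 30 tested members, 2 fell (Krt84 and Krt36, where 0.140% of all genes fell), 0 rose, and the median difference was -0.50 beside -0.12 for all genes. Loss arrays lay wholly below the controls in 13 of the 30, where 20.7% of all genes did so. Krt35, a hair cortex keratin, read 6.89, 5.84 and 5.93 in the controls and 4.75 and 4.49 with loss (difference -1.60 ± 0.33, adjusted p = 0.0682). It was at 6.15, 5.79 and 6.64 with SmoM2 alone, overlapping the controls, and loss differed from SmoM2 alone by -1.57 ± 0.33 (adjusted p = 0.0385). Both its loss arrays lay under the filter level, which makes it at least 2.43-fold lower. Krt75, a keratin of the companion layer around the hair shaft, also fell against SmoM2 alone, with a difference of -1.91 ± 0.41 (adjusted p = 0.0409). Hoxc13, Foxn1 and Dlx3, transcription factors picked from the list of the embryonic hair placode and germ, had negative differences that did not pass. That list was mixed, with 12 positive and 14 negative differences from control, among them 2.02 for Lhx2 and 1.71 for Sox9. Hoxc13, a regulator of hair keratin genes, read 9.35, 10.42 and 9.54 in the controls and 8.32 and 7.65 with loss (-1.78 ± 0.45, adjusted p = 0.114). Foxn1, the gene of the nude mouse, read 8.09, 7.05 and 7.16 against 5.12 and 4.67 (-2.54 ± 0.67, adjusted p = 0.121). Dlx3, a homeobox factor of the hair shaft, read 7.08, 6.82 and 7.03 against 5.71 and 5.52 (-1.36 ± 0.33, adjusted p = 0.101). For each of these 3 factors both loss arrays lay under all controls.

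Among the other genes that fell, several encode surface or secreted proteins. Igfbp3, a secreted carrier of insulin-like growth factors, read 10.06, 9.50 and 11.004 in the controls and 6.02 and 5.99 with loss, and fell by 4.18 ± 0.67 or 18.1-fold (adjusted p = 0.0346). With SmoM2 alone it read 8.34, 5.88 and 8.43, and SmoM2 replicate 2 reached the loss level. Nrp1, a co-receptor for semaphorins and VEGF, read 7.25, 7.89 and 6.88 in the controls, 5.50, 4.99 and 5.25 with SmoM2 alone and 4.11 and 4.32 with loss. Its difference from control was -3.13 ± 0.48 (adjusted p = 0.0346), with -4.25, -2.52 and -0.37 on its other probe sets. Pdpn, the membrane glycoprotein podoplanin, differed by -1.65 ± 0.28 (adjusted p = 0.0388) and Hemgn, a nuclear protein of blood cell precursors, by -2.53 ± 0.47 (adjusted p = 0.0491). SmoM2 alone differed from control by -2.64 for Igfbp3, -2.09 for Nrp1, -1.29 for Pdpn and -2.38 for Hemgn, and all 4 were called there too. The calls of Igfbp3, Nrp1 and Hemgn against control were also lost whichever 1 array was left out, with differences of -4.53 to -3.77, -3.36 to -2.85 and -2.77 to -2.28. Pdpn kept its call without control replicate 2 and with no other array left out (-1.88 to -1.51). Both loss arrays lay under the filter level for Nrp1 and Hemgn, which were at least 5.38-fold and 2.23-fold lower than control. Both comparisons share the control arrays, so the values are set side by side and are not independent.

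For several other genes that fell, the difference of SmoM2 alone from control did not pass. Pxylp1, a phosphatase of glycosaminoglycan synthesis, read 8.95, 8.30 and 8.33 in the controls, 9.53, 9.59 and 8.66 with SmoM2 alone and 6.18 and 6.73 with loss. Loss differed from control by -2.08 ± 0.31 (adjusted p = 0.0346) and from SmoM2 alone by -2.81 ± 0.31 (adjusted p = 0.00550). Tmem87a differed by -2.22 ± 0.33 from control and -2.28 ± 0.33 from SmoM2 alone, Lyplal1, a lysophospholipase-like enzyme, by -2.32 ± 0.39 and -2.65 ± 0.39, and Hddc3 by -2.21 ± 0.34 and -2.10 ± 0.34. All of these passed in both tests, with adjusted p of 0.0346 and 0.0122, 0.0346 and 0.0122, and 0.0346 and 0.0182. The other Hddc3 probe set, with a low control mean of 5.16, differed by -0.03 from control and -0.08 from SmoM2 alone. Nnt, the mitochondrial transhydrogenase, read 9.53, 9.46 and 9.97 in the controls, 8.36, 8.34 and 9.19 with SmoM2 alone and 5.49 and 7.37 with loss, a difference from control of -3.23 ± 0.45 (adjusted p = 0.0310). Its loss replicates were far apart. Against control, Nnt, Pxylp1, Fam117a and Hddc3 passed without loss replicate 2 and with no other array left out, and Sh3gl2 with none left out. Lyplal1 also passed without control replicate 2, and Tmem87a without control replicate 1. Over these leave-outs Nnt ran from -4.17 to -2.28 and Hddc3 from -2.71 to -1.70. Fam117a fell by 2.43 and Sh3gl2, the endocytic protein endophilin A1, fell by 1.70 against control, with adjusted p of 0.0346 and 0.0390. The other Sh3gl2 probe sets differed from control by -0.78 and -0.47.

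Ang, Tnnt2, Emb and Ovgp1 rose with loss, and their differences with SmoM2 alone did not pass against control, with or without the replicate block. Ang read 5.14, 5.81 and 5.15 in the controls, 4.65, 5.71 and 4.61 with SmoM2 alone and 8.05 and 10.15 with loss. The rise of 3.73 ± 0.54 was 13.3-fold (adjusted p = 0.0323), and loss exceeded SmoM2 alone by 4.11 ± 0.54 (adjusted p = 0.0102). The other 2 Ang probe sets differed from control by 2.61 and 0.81. Tnnt2, a troponin best known from heart muscle, read 4.68, 4.91 and 4.68 in the controls, 4.06, 4.96 and 4.69 with SmoM2 alone and 6.98 and 6.89 with loss. Its rise of 2.18 ± 0.25 had an adjusted p of 0.0116, and its other probe sets gave 2.24 and 1.65. All control and SmoM2 arrays lay under the filter level, and against that level loss was at least 4.03-fold higher than control. The 10 skeletal muscle markers averaged 4.93 and 4.64 in the loss arrays and 4.86 to 4.88 in the controls. Several of them, such as Myh1, Myh4 and Tnnt3, lay under the filter level in all 8 arrays. Of the 6 tested, 5 had negative differences from control. The other, the troponin Tnnc2, read 5.08 and 5.06 with loss and 4.64, 4.56 and 4.72 in the controls, all near that level. The part of muscle in the Tnnt2 values was not tested. Emb, which encodes embigin, a membrane partner of lactate transporters, read 8.97, 7.97 and 8.78 in the controls, 8.85, 8.41 and 8.48 with SmoM2 alone and 11.39 and 10.64 with loss (2.44 ± 0.33, adjusted p = 0.0310). Ovgp1, an oviduct glycoprotein of the chitinase family, read 5.55, 6.44 and 5.62 in the controls, 6.85, 6.74 and 6.93 with SmoM2 alone and 8.43 and 8.55 with loss (2.62 ± 0.31, adjusted p = 0.0143). Emb and Ovgp1 each passed under 12 of 14 alternative settings, and Ang under 11. Tnnt2 also passed under 12. It entered the test only through the loss arrays, so refits of the same arrays give its call no separate support. Emb, Tnnt2 and Ovgp1 lost their calls without control replicate 3 or loss replicate 1, and Ang lost its call whichever control replicate was left out. With 1 array left out the differences ran from 2.06 to 2.82 for Emb, 2.137 to 2.26 for Tnnt2, 2.46 to 2.90 for Ovgp1 and 2.68 to 4.79 for Ang.

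**Figure D2:**
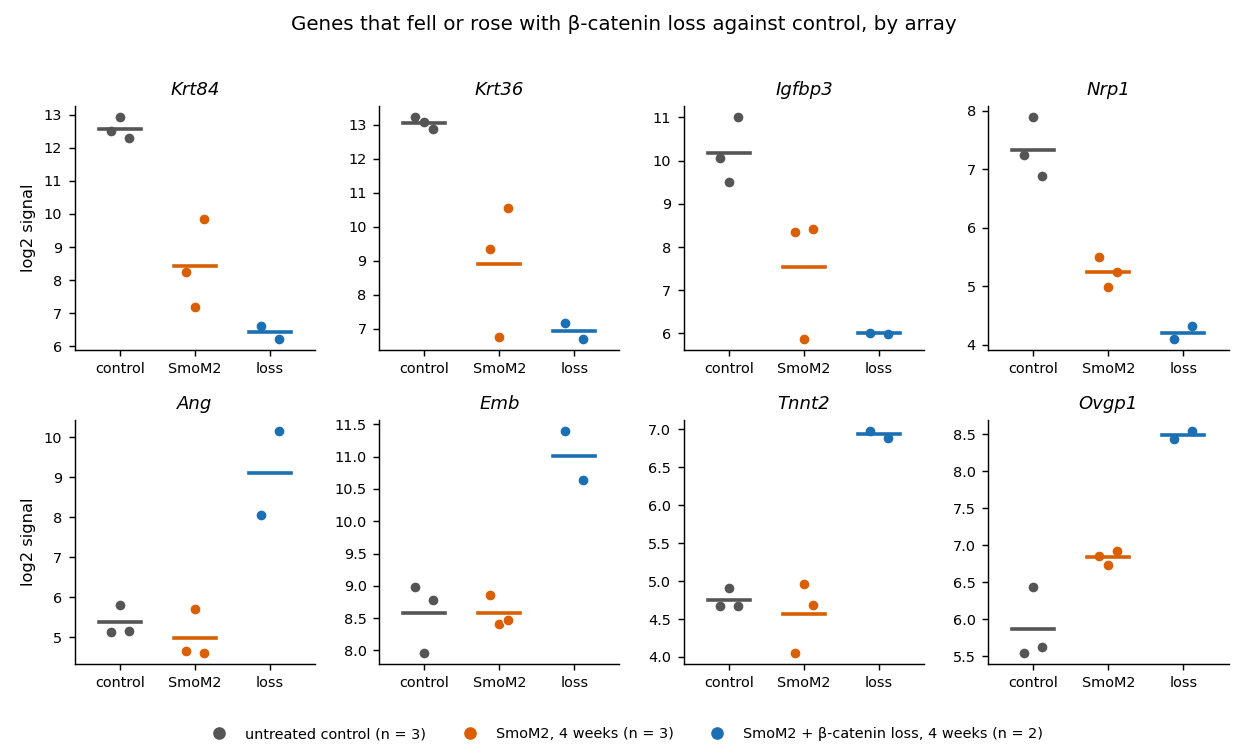
Each dot is the log2 signal (y axis) of one array and each bar is a group mean, for untreated control, SmoM2 alone at 4 weeks and SmoM2 with β-catenin loss at 4 weeks (x axis). Krt84, Krt36, Igfbp3 and Nrp1 lie below all controls in both loss arrays, and Ang, Emb, Tnnt2 and Ovgp1 lie above them.

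Enzymes of lipid and small-molecule metabolism were among the rises. Cyp2b19, a cytochrome P450 of keratinocytes that oxidises arachidonic acid, read 4.89, 4.77 and 4.23 in the controls, 5.44, 4.24 and 4.26 with SmoM2 alone and 8.07 and 6.55 with loss (2.68 ± 0.47, adjusted p = 0.0432). Acot5, a peroxisomal acyl-CoA thioesterase, read 4.47, 4.18 and 4.29 in the controls and 8.01 and 5.92 with loss (2.65 ± 0.44, adjusted p = 0.0346). Me1, the malic enzyme that supplies NADPH for fatty acid synthesis, read 8.77, 8.83 and 8.63 in the controls and 11.32 and 10.76 with loss (2.30 ± 0.41, adjusted p = 0.0432). In each of these genes both loss arrays lay above every control. All controls lay under the filter level for Cyp2b19 and Acot5, which were at least 5.23-fold and 4.13-fold higher with loss. Acot5 exceeded that level in the loss arrays only, so it entered the test through them. Aox1, aldehyde oxidase, rose by 2.07 ± 0.34 (adjusted p = 0.0346), and Amy1, an amylase, by 3.52 ± 0.61 (adjusted p = 0.0406). Amy1 was at 6.62, 4.52 and 3.65 with SmoM2 alone, so SmoM2 replicate 1 came close to the loss arrays (7.18 and 7.34). Its controls also lay under the filter level, and loss was at least 5.04-fold above it. Without the filter Amy1 and Cyp2b19 did not pass (adjusted p of 0.0534 for both). Of the 23 tested genes of sterol and fatty acid synthesis, 0 were called in limma (2 higher and 1 lower at an unadjusted p under 0.05), with a median difference of 0.25. Of 23 metallothionein and xenobiotic enzyme genes only Cyp2b19 was called (0.371% of all genes were), with the same median to 2 decimals. Otud7a, a deubiquitinase, rose by 2.53 ± 0.36 (adjusted p = 0.0319), and Ppil6, of the prolyl isomerase family, by 2.51 ± 0.47 (adjusted p = 0.0496). The other Otud7a probe sets, with low control means of 4.07 and 4.50, differed by 0.69 and 0.09. The probe set of Vps52, a vesicle-tethering subunit, rose by 3.27 ± 0.56 (adjusted p = 0.0390) while its other probe set differed by -0.46, so the direction of that gene is uncertain. The calls of Amy1, Aox1, Me1, Ppil6 and Vps52 were lost whichever 1 array was left out, and Cyp2b19, Acot5 and Otud7a passed only without loss replicate 2. Their differences then ran from 1.92 to 3.44 for Cyp2b19, 1.61 to 3.698 for Acot5 and 1.83 to 3.22 for Otud7a.

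A chemokine and a signalling inhibitor also rose. Cxcl1, a chemokine that attracts neutrophils, read 8.35, 7.76 and 8.03 in the controls, 7.50, 8.11 and 8.07 with SmoM2 alone and 10.55 and 9.50 with loss (1.98 ± 0.36, adjusted p = 0.0448). It was the 1 gene called among 21 tested wound and barrier stress genes (0.371% of all genes were called), whose median difference was 0.24. Spry2, a feedback inhibitor of receptor tyrosine kinases, read 7.85, 8.41 and 8.42 in the controls, 8.28, 8.84 and 8.34 with SmoM2 alone and 9.94 and 9.52 with loss (1.51 ± 0.26, adjusted p = 0.0390), the 1 gene called among 24 of the EGF and FGF list (0.371% of all genes). Its call was lost whichever 1 array was left out (1.30 to 1.71), and that of Cxcl1 with any left out but loss replicate 2 (1.45 to 2.51). Zfp874a, a zinc finger gene, rose by 1.59 ± 0.17 (adjusted p = 0.0116). All its control and SmoM2 arrays lay under the filter level, and against that level loss was at least 1.46-fold higher. It did not pass without control replicate 3 or loss replicate 1 (1.54 to 1.63 over the leave-outs).

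No member of the hedgehog list passed the test against control with β-catenin loss, although the classic targets had large values. The list's 18 tested genes had a median difference of 0.05, with 10 above 0. That median was 0.46 without loss replicate 1, -0.25 without loss replicate 2 and -0.02 without control replicate 2. At an unadjusted p under 0.05 in limma, 4 were higher and 3 lower. With SmoM2 alone 5 of the 18 (Gli1, Gli2, Kif7, Ptch1 and Smo) were called higher, where 2.44% of all genes were. Gli1, the transcription factor that is itself a target of the pathway, read 5.73, 5.58 and 5.30 in the controls, 10.55, 10.83 and 9.95 with SmoM2 alone and 7.22 and 9.56 with loss. Its difference from control was 2.85 ± 0.60, or 7.20-fold, with a 95% interval of 1.53 to 4.17 (adjusted p = 0.0823). Ptch1, the receptor and a direct target, read 9.10, 8.66 and 9.11 in the controls, 13.60, 12.92 and 12.64 with SmoM2 alone and 10.71 and 12.50 with loss (2.65 ± 0.53, interval 1.49 to 3.81, adjusted p = 0.0648). Gli2, the main activator of the pathway in skin, read 8.10, 7.80 and 7.22 in the controls, 11.58, 11.28 and 10.996 with SmoM2 alone and 9.22 and 11.34 with loss (2.58 ± 0.55, interval 1.38 to 3.77, adjusted p = 0.0825). All 3 genes were above every control in both loss arrays, and in all 3 loss replicate 2 was higher than replicate 1 by about 2 log2 units. Over the whole list, loss arrays lay wholly above the controls in 4 of 18 genes (13.0% of all genes) and wholly below in 4 (20.7%).

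The test between loss and SmoM2 alone called none of these targets either. It gave -2.06 ± 0.60 for Gli1 (interval -3.38 to -0.73, adjusted p = 0.0995), -1.44 ± 0.53 for Ptch1 (interval -2.60 to -0.29, adjusted p = 0.180) and -1.002 ± 0.55 for Gli2 (interval -2.20 to 0.20, adjusted p = 0.392). For Gli2 the value was 0.057 without loss replicate 1. Of the 18 hedgehog genes, 16 were lower with loss than with SmoM2 alone, with a median of -0.78 beside -0.09 for all genes. At an unadjusted p under 0.05 in limma, 9 were lower and 1 higher. Over all 14285 genes 1515 were lower and 939 higher at that p, and 5948 had a positive difference. Hhip, a secreted antagonist and target, was far apart in the loss replicates: it read 6.78, 5.09 and 7.12 in the controls, 10.29, 11.19 and 8.84 with SmoM2 alone and 4.36 and 7.79 with loss. Its difference from SmoM2 alone was -4.02 ± 1.13 (adjusted p = 0.0852), and from control -0.25 ± 1.13 (adjusted p = 0.932). Smo itself read 9.80, 9.80 and 10.01 in the controls, 11.48, 10.98 and 11.01 with SmoM2 alone and 9.67 and 10.33 with loss, and the sources used here do not state if the SmoM2 transgene is read by the same probe set. Downstream components Gli3 and Sufu differed from control by 0.32 ± 0.42 and 0.06 ± 0.29 (adjusted p = 0.737 and 0.940).

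**Figure D3:**
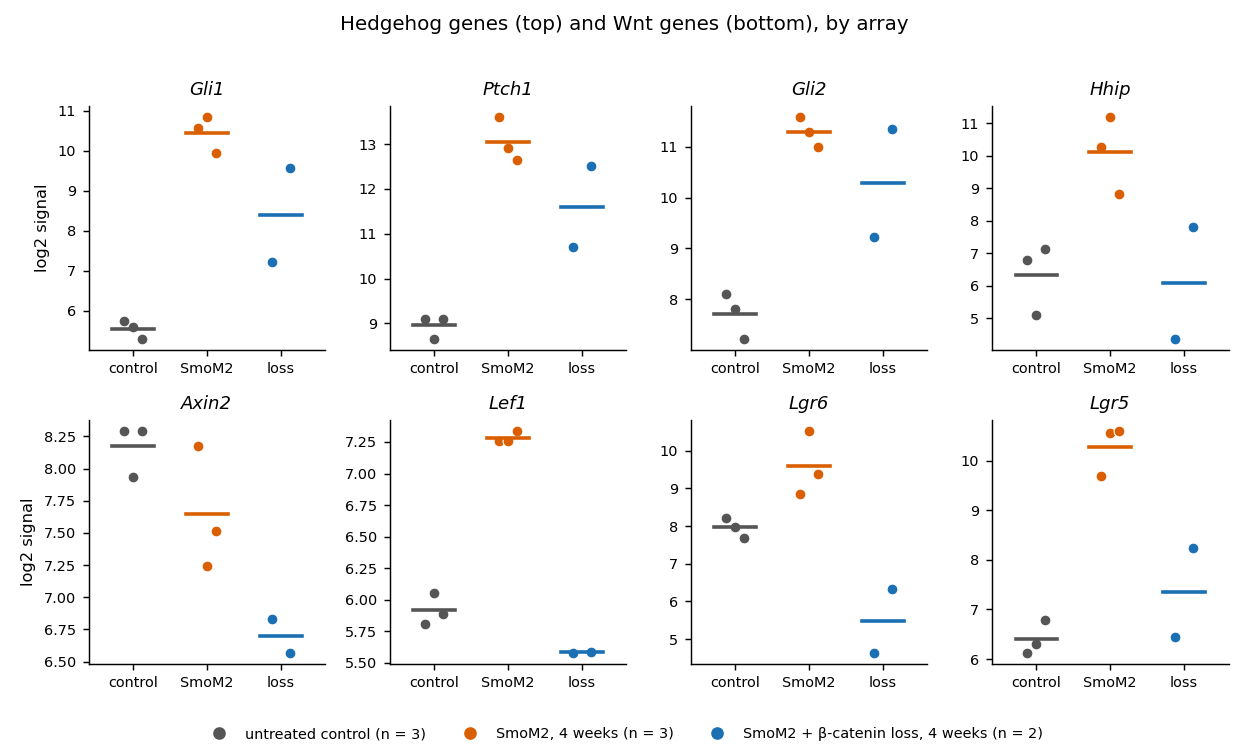
Log2 signal (y axis) of each array by group (x axis), with bars at the group means, for 4 hedgehog genes above and 4 Wnt genes below. Gli1, Ptch1 and Gli2 lie above the controls in both loss arrays, replicate 2 higher than replicate 1, while Axin2, Lef1 and Lgr6 lie below the controls.

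Of the 19 tested targets of Wnt and β-catenin, 0 passed in limma against control, while at an unadjusted p under 0.05 there were 6 lower and 1 higher. Of these targets, 16 had a negative difference, the median was -0.60 beside -0.12 for all genes, and 10 of 19 lay wholly below the controls (20.7% of all genes). Axin2, a feedback inhibitor and general Wnt target, read 8.29, 7.94 and 8.29 in the controls, 8.18, 7.24 and 7.51 with SmoM2 alone and 6.83 and 6.57 with loss (-1.47 ± 0.35, adjusted p = 0.1001). Lgr6, a receptor for R-spondins found on epidermal stem cells, read 8.22, 7.98 and 7.70 in the controls, 8.84, 10.52 and 9.39 with SmoM2 alone and 4.65 and 6.34 with loss (-2.47 ± 0.60, adjusted p = 0.101). Bmp4, a ligand of the hair placode, and Ascl2, a transcription factor, differed from control by -2.004 ± 0.57 and -1.25 ± 0.34 (adjusted p = 0.143 and 0.133). Rnf43, a ubiquitin ligase that removes Wnt receptors, differed by -0.75 ± 0.22 (adjusted p = 0.153). Sox4, a transcription factor, went the other way, at 11.87 and 11.19 with loss and 9.81, 10.36 and 10.69 in the controls (1.25 ± 0.38, adjusted p = 0.166).

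Against SmoM2 alone, 3 of the 19 Wnt targets fell (1.58% of all genes did): Lef1, Lgr6 and Wif1. Lef1, the nuclear partner of β-catenin in hair, read 5.58 and 5.59 with loss, 7.25, 7.26 and 7.34 with SmoM2 alone and 5.81, 6.06 and 5.89 in the controls. The difference between loss and SmoM2 alone was -1.70 ± 0.21 (adjusted p = 0.00948), and the replicates of each group were tightly spaced. Lgr6 differed by -4.09 ± 0.60, which is 17.0-fold (adjusted p = 0.0122). Wif1, a secreted Wnt inhibitor, read 3.23 and 3.82 with loss, 7.71, 12.31 and 9.30 with SmoM2 alone and 5.60, 4.43 and 4.46 in the controls (-6.25 ± 1.45, adjusted p = 0.04997), and its SmoM2 replicates were widely spread. Both loss arrays of Wif1 lay under the filter level, and the fall was at least 29.1-fold. Lgr5, a stem cell receptor related to Lgr6, read 6.45 and 8.24 with loss and 9.69, 10.56 and 10.60 with SmoM2 alone (-2.93 ± 0.78, adjusted p = 0.0716). Tcf7l1, the Tcf factor of the bulge that represses Wnt targets, was above all controls (7.63, 7.35 and 7.30) at 8.43 and 8.43 with loss (1.01 ± 0.22, adjusted p = 0.0876), where SmoM2 alone had 8.89, 9.39 and 8.80.

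Of 33 Wnt ligands and receptors, 0 were called in limma with loss against control (0.371% of all genes) or SmoM2 alone (2.23%). The median difference from control was -0.21, with 1 higher and 6 lower than control at an unadjusted p under 0.05. Wnt3 read 6.76, 5.30 and 6.34 in the controls, 3.53, 3.24 and 3.67 with SmoM2 alone and 3.61 and 4.53 with loss (-2.07 ± 0.61, adjusted p = 0.149). Wnt4 read 10.92, 11.18 and 11.09 in the controls, 9.83, 9.52 and 9.74 with SmoM2 alone and 9.47 and 10.18 with loss (-1.24 ± 0.37, adjusted p = 0.154). For both ligands SmoM2 alone and loss lay under the controls, and the test between them gave 0.59 ± 0.61 and 0.13 ± 0.37 (adjusted p = 0.674 and 0.899). Among 29 catenins and junction partners 0 were called against control (median -0.04, with 3 higher and 2 lower at an unadjusted p under 0.05). Cdh11, a mesenchymal cadherin, was the 1 that differed from SmoM2 alone, as 2.23% of all genes did. It read 3.70 and 5.28 with loss, 8.61, 8.99 and 7.80 with SmoM2 alone and 3.78, 4.35 and 4.77 in the controls (-3.97 ± 0.87 from SmoM2 alone, adjusted p = 0.0431). That call was lost whichever 1 of the 5 arrays was left out (-4.76 to -3.19).

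Loss and SmoM2 alone differed in 318 genes (2.23%): 92 were higher with β-catenin loss (0.644%) and 226 lower (1.58%), with a median difference of -0.09. Without loss replicate 1 the count was 2, and without SmoM2 replicate 1 it was 147. Using only the arrays of these groups it was 17, with array weights 102 and with the Y-linked covariate 143. Of 39 genes followed through these fits, 38 lost this call without loss replicate 1, and Ang kept it. Without SmoM2 replicates 1, 2 and 3 there were 11, 7 and 9 that lost it, and 15 without loss replicate 2. Nrep, for which the difference ran from -6.24 to -2.22, kept it without loss replicate 2 only, Wif1 (-7.28 to -4.98) without SmoM2 replicate 1 only, and Il6ra (3.52 to 4.54) without SmoM2 replicate 3 only. Krt75 (-2.33 to -1.46), Itga3 (1.15 to 1.34) and Krt35 (-1.77 to -1.35) kept it without SmoM2 replicate 2 only, and Ncam1 (-3.53 to -2.77) without SmoM2 replicate 3 only. The 6 genes with the largest falls were Wif1, Synpo2, Tgfb2, Pcdh20, Nrep and Lgr6. Synpo2, an actin-binding protein, read 4.04 and 4.04 with loss, 9.32, 8.85 and 8.57 with SmoM2 alone and 5.44, 4.41 and 4.76 in the controls (-4.87 ± 0.88, adjusted p = 0.0250), and with both loss arrays under the filter level it was at least 15.98-fold lower. Tgfb2, a growth factor of the hair germ, read 5.30 and 6.84 with loss, 10.63, 10.87 and 10.13 with SmoM2 alone and 8.29, 7.96 and 8.50 in the controls (-4.47 ± 0.67, adjusted p = 0.0122). Pcdh20, a protocadherin, read 4.03 and 5.32 with loss, 9.16, 9.55 and 8.71 with SmoM2 alone and 6.70, 5.07 and 4.98 in the controls (-4.47 ± 0.71, adjusted p = 0.0154). In these 3 genes no loss array exceeded the highest control. Nrep differed by -4.23 ± 0.96 (adjusted p = 0.0466), with loss replicates of 5.13 and 9.16.

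The 6 largest rises over SmoM2 alone were Ang, Il6ra, Hpgd, Gsta3, Vegfd and Il22ra2. Il6ra, the interleukin-6 receptor, read 10.05 and 9.83 with loss, 5.30, 5.51 and 7.34 with SmoM2 alone and 7.06, 9.88 and 9.15 in the controls (3.89 ± 0.86, adjusted p = 0.0447). Hpgd, which degrades prostaglandins, read 11.83 and 11.18 with loss, 8.36, 6.91 and 8.57 with SmoM2 alone and 8.63, 9.82 and 9.64 in the controls (3.56 ± 0.59, adjusted p = 0.0199). Gsta3, a glutathione transferase, read 8.66 and 8.42 with loss, 6.001, 3.94 and 5.56 with SmoM2 alone and 5.85, 6.21 and 7.55 in the controls (3.38 ± 0.58, adjusted p = 0.0222). For Hpgd and Gsta3 loss was above all 6 arrays of the other groups, and for Il6ra the loss arrays were near the highest control. Vegfd, a growth factor for lymphatic vessels, and Il22ra2, a decoy receptor for interleukin-22, exceeded SmoM2 alone by 3.20 ± 0.49 and 3.01 ± 0.42 (adjusted p = 0.0130 and 0.0122). Itga3, the laminin-binding integrin subunit of basal cells, was the 1 of 17 basal and hemidesmosome genes that differed from SmoM2 alone (1.23 ± 0.26, adjusted p = 0.0409). Over all genes 2.23% differed in that test.

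**Figure D4:**
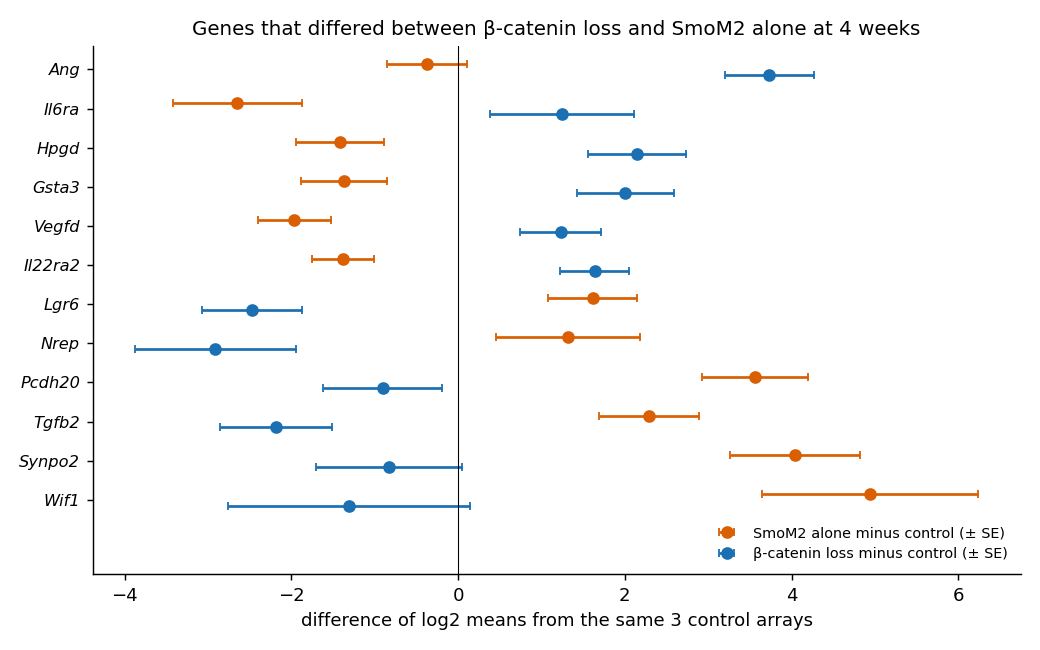
For the 12 genes with the largest differences between β-catenin loss and SmoM2 alone, the difference of log2 means from the same 3 control arrays (x axis) is plotted for each group, with bars of 1 standard error. The lower 6 genes lie right of 0 with SmoM2 alone and left of 0 with loss, and of the upper 6 all lie right of 0 with loss and left of it with SmoM2 alone.

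Of 26 genes of the embryonic hair placode and germ, 0 were called against control in limma (3 higher and 8 lower at an unadjusted p under 0.05), and the median was -0.13, whereas SmoM2 alone had 4 called higher and a median of 0.86. Over all genes 0.231% were called higher with loss and 2.44% with SmoM2 alone, and with the replicate block 8 of the 26 were called higher and 2 lower with SmoM2 alone. Cux1, a homeobox factor of the hair lineage, read 7.64 and 8.10 with loss, 10.42, 9.37 and 10.09 with SmoM2 alone and 8.52, 8.94 and 9.13 in the controls, with a difference from SmoM2 alone of -2.09 ± 0.33 (adjusted p = 0.0148). Ncam1, an adhesion molecule, and Tgfb2 were the other two of the list that fell against SmoM2 alone, Ncam1 with a difference of -3.14 ± 0.62 (adjusted p = 0.0332). Sox9, a factor of follicle stem cells, read 9.91 and 10.003 with loss, 8.64, 10.77 and 10.56 with SmoM2 alone and 7.72, 8.20 and 8.82 in the controls, with a difference of -0.03 ± 0.66 from SmoM2 alone (interval -1.48 to 1.42, adjusted p = 0.989). Lhx2, a factor of the placode and bulge, read 8.14 and 10.32 with loss, 11.65, 11.74 and 11.68 with SmoM2 alone and 7.12, 6.86 and 7.65 in the controls (-2.46 ± 0.75 from SmoM2 alone, adjusted p = 0.114). Loss replicate 2 was again nearer to SmoM2 alone for Lhx2, while the Sox9 values of both loss arrays lay within the SmoM2 range. Cdkn2b, an inhibitor of cell cycle kinases, read 7.11 and 6.93 with loss, 8.87, 9.46 and 8.72 with SmoM2 alone and 7.55, 7.42 and 7.94 in the controls (-1.997 ± 0.25, adjusted p = 0.00948). The 6 markers of the follicle bulge averaged 8.17 and 8.91 with loss, 9.16 to 10.01 with SmoM2 alone and 7.59 to 8.09 in the controls, and their part in these values was not tested.

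With SmoM2 alone 8 of 31 collagens and matrix genes were called higher than control (2.44% of all genes) and 1, Ogn, lower (0.798%), with 8 higher and 3 lower under the replicate block. With loss 0 were called in either direction, near the shares of all genes called higher (0.231%) and lower (0.140%). The median with loss was -0.19, with 2 higher and 6 lower at an unadjusted p under 0.05 in limma. Fn1, fibronectin, read 5.37 and 5.48 with loss, 7.65, 7.13 and 8.12 with SmoM2 alone and 6.24, 6.997 and 6.41 in the controls (-2.21 ± 0.39 from SmoM2 alone, adjusted p = 0.0235). Col5a1 differed from SmoM2 alone by -1.95 ± 0.34 (adjusted p = 0.0223). Col14a1, a fibril-associated collagen, read 4.43 and 9.002 with loss, 11.96, 10.08 and 11.29 with SmoM2 alone and 6.27, 5.36 and 5.58 in the controls, so 1 loss array was below the controls and the other well above them. Ogn, a matrix proteoglycan, was at 3.65 and 4.19 with loss and 3.66, 3.84 and 4.30 with SmoM2 alone, against 7.61, 7.96 and 7.61 in the controls (-3.81 ± 0.91 from control, adjusted p = 0.1001). The 15 dermal fibroblast markers averaged 5.05 and 5.40 with loss, 5.86 to 6.35 with SmoM2 alone and 5.66 to 5.98 in the controls, and their part in these matrix values was not tested.

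Genes of interfollicular differentiation had 0 calls among 39 with loss (median -0.22, with 0 higher and 7 lower at an unadjusted p under 0.05 in limma), and 5 with SmoM2 alone, 2 higher and 3 lower. Over all genes 0.371% were called with loss and 3.24% with SmoM2 alone. Tgm3, a transglutaminase of the cornified layer, read 8.17 and 9.02 with loss, 6.47, 7.24 and 8.11 with SmoM2 alone and 10.11, 10.85 and 10.96 in the controls. Its difference from control was -2.05 ± 0.55 (adjusted p = 0.130) and from SmoM2 alone 1.32 ± 0.55 (adjusted p = 0.248). Krt2, a late keratin, read 10.14 and 11.78 with loss, 9.78, 6.89 and 10.37 with SmoM2 alone and 12.74, 13.12 and 12.69 in the controls. Mt4, an epithelial metallothionein, read 11.39 and 10.77 with loss, 8.44, 8.56 and 10.10 with SmoM2 alone and 12.67, 13.36 and 13.05 in the controls. In both genes the loss mean lay between SmoM2 alone and the controls, and neither passed against either group (adjusted p = 0.388 and 0.329 for Krt2, 0.350 and 0.277 for Mt4). Krt1 and Krt10, the main suprabasal keratins, differed from control by -0.07 ± 0.51 and -0.41 ± 0.29 (adjusted p = 0.957 and 0.533).

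Markers of other cell types differed in level between the groups. All 11 melanocyte markers had negative differences from control with β-catenin loss, with a median of -2.34 beside -0.12 for all genes, and 10 of 11 lay wholly below the controls (20.7% of all genes), although none passed the test in limma and 9 had an unadjusted p under 0.05. Dct, an enzyme of melanin synthesis, read 8.58, 11.27 and 9.81 in the controls, 7.78, 7.21 and 9.52 with SmoM2 alone and 5.46 and 5.93 with loss (-4.20 ± 0.94, adjusted p = 0.0932). Tyrp1, another such enzyme, read 8.23, 10.52 and 8.89 in the controls, 6.11, 5.14 and 8.64 with SmoM2 alone and 4.43 and 4.99 with loss (-4.50 ± 1.10, adjusted p = 0.105). The list averaged 5.36 and 5.31 in the loss arrays, 5.95 to 7.17 with SmoM2 alone and 6.78 to 8.74 in the controls. In sorted cells measured in bulk, fewer melanocytes and less RNA per melanocyte cannot be told apart, and their part in the falls above was not tested. Sebaceous gland markers went the other way: 10 of 11 had positive differences (median 0.57, 0 called, 2 higher at an unadjusted p under 0.05 in limma), with medians of 0.34 without control replicate 3, 0.35 without loss replicate 1 and 0.34 with the mean of probe sets. The list averaged 10.46 and 9.85 with loss, 7.89 to 9.27 with SmoM2 alone and 9.24 to 9.92 in the controls. Elovl3, a fatty acid elongase of the gland, read 10.03 and 9.30 with loss and 7.99, 8.83 and 7.42 in the controls (1.59 ± 0.62, adjusted p = 0.264), and the part of the gland in the rises of lipid enzymes was not tested. Markers of leukocytes and Langerhans cells averaged 5.39 and 6.10 with loss and 5.51 to 6.29 in the controls, and those of endothelial cells 5.15 and 4.74 with loss and 5.26 to 5.37 in the controls.

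Cell cycle genes were lower in one loss array than in the other. All 34 tested had negative differences from control, with a median of -0.95, 0 called and 6 at an unadjusted p under 0.05 in limma, and the median was -0.18 without loss replicate 1. Their mean level was 7.80 in loss replicate 1 and 9.19 in replicate 2, against 8.95 to 9.77 in the controls and 8.03 to 9.51 with SmoM2 alone. Mki67, a proliferation marker, read 11.52, 10.98 and 11.36 in the controls and 9.34 and 11.66 with loss (-0.79 ± 0.61, adjusted p = 0.561), so loss replicate 2 was above all controls. Rrm2, a subunit of ribonucleotide reductase, had the lowest p of the list, with 11.54, 11.04 and 10.81 against 9.66 and 10.40 (-1.10 ± 0.32, adjusted p = 0.146). Interferon genes also differed between the loss replicates, again higher in replicate 2. The 20 genes averaged 5.42 in loss replicate 1 and 7.92 in replicate 2, beside 5.49 to 6.90 in the controls, with 0 called in limma, 1 higher at an unadjusted p under 0.05, and a median of 0.70. Ifit1, an interferon-induced protein, read 3.91 and 8.52 with loss and 4.18, 4.21 and 6.06 in the controls.

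**Figure D5:**
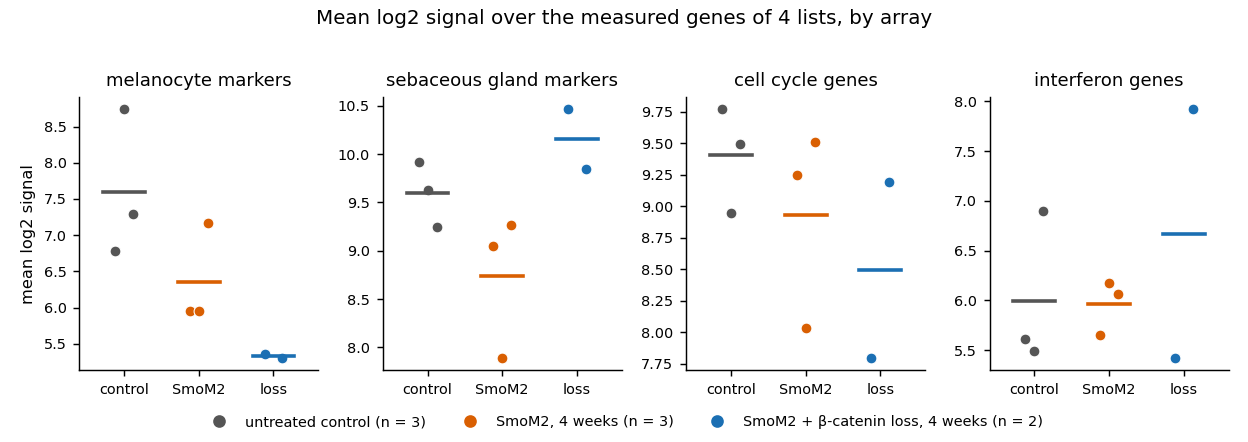
Mean log2 signal (y axis) over the measured genes of 4 lists, one dot per array and a bar at each group mean. Melanocyte markers are lowest in both loss arrays (5.36 and 5.31), sebaceous gland markers are higher in both (10.46 and 9.85) than in SmoM2 alone, and cell cycle and interferon genes differ between the 2 loss arrays.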

How the data were processed

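Sorted cells were profiled on Affymetrix arrays from 100 ng of RNA per sample, per the labels' protocols. The authors deposited log2 signals for 45101 probe sets in 16 arrays; the log2 scale was read from the values. The submitters' processing notes name R 2.14.0. The sources used here do not give background correction or normalization. Each of 18193 genes was read from its single-gene probe set (34958 such sets) of highest mean. Genes had to exceed an array's 40th percentile in 2 or more arrays, which left 14285 to test. limma 3.58.1 in R 4.3.3 fitted group means over the 14 IFE arrays with eBayes, tested on simulated data. The number of arrays limits the precision. Same-numbered control and SmoM2 arrays deviated together (r of 0.57, 0.49 and 0.48), so blocked values stand beside that comparison; same-numbered loss and control arrays did not (0.01 and -0.11), nor did loss and SmoM2 arrays (-0.05 and -0.18), so the fit has no block.

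The members and gene lists were chosen with earlier results of these data known. Named genes were the 12 largest rises and falls past the threshold, 6 each way against SmoM2 alone, up to 4 called members of each list or else the 2 of lowest p, and a fixed set of pathway genes; Pdpn, Zfp874a and other list members outside these rules, such as Foxn1, Rnf43 and Cdh11, were chosen after their values were seen. Alternatives are given in the closing section.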

Additional observations from a re-analysis of the deposited data

Results flagged for a closer look

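The test between β-catenin loss and SmoM2 alone at 4 weeks, which is the test of whether the 2 differences from control differ, singled out these named genes. Lower with loss (log2) were Wif1 (-6.25), Synpo2 (-4.87), Tgfb2 (-4.47), Pcdh20 (-4.47), Nrep (-4.23), Lgr6 (-4.09), Cdh11 (-3.97), Ncam1 (-3.14), Gjb6 (-2.91), Pxylp1 (-2.81), Lyplal1 (-2.65), Tmem87a (-2.28), Fn1 (-2.21), Nnt (-2.20), Hddc3 (-2.10), Cux1 (-2.09), Cdkn2b (-1.997), Col5a1 (-1.95), Krt75 (-1.91), Lef1 (-1.70), Krt35 (-1.57) and Bmp7 (-1.50). Higher with loss were Ang (4.11), Il6ra (3.89), Hpgd (3.56), Gsta3 (3.38), Vegfd (3.20), Il22ra2 (3.01), Acot5 (2.98), Cyp2b19 (2.66), Emb (2.44), Tnnt2 (2.36), Cxcl1 (2.13), Fgfr3 (1.99), Aox1 (1.80), Ovgp1 (1.65), Zfp874a (1.54), Spry2 (1.24) and Itga3 (1.23). Each passed at an adjusted p under 0.05 in limma. Loss and SmoM2 arrays did not overlap in any of them, as in all 318 genes called in that test, so this adds no support. Tnnt2, Acot5 and Zfp874a exceeded the filter level in the loss arrays only, so they entered the test through them.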

How the results depend on the processing

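Against control, 53 genes were called, and 86 with the mean of a gene's probe sets, 96 with array weights, 169 with the replicate block and 10 with the Y-linked covariate; leaving out 1 array gave 1 to 54. Against SmoM2 alone the 318 calls became 17 using only the groups compared, 102 with array weights, 1347 with the replicate block and 143 with the Y-linked covariate, and 2 to 247 with 1 array left out. SmoM2 alone against control had 463 calls, 873 with the replicate block, and 13 to 410 with 1 array left out. The numbers do not pair the loss arrays, so the block's counts for them are given only here; between SmoM2 alone and control it changed no call of a gene whose call there is stated. The median difference of the Wnt targets was -0.38 without the filter on low signal, -0.81 with a stricter filter and -0.47 with the mean of probe sets, beside -0.60. Leaving out 1 array gave medians of -0.25 to 0.46 for the hedgehog list and -1.61 to -0.18 for the cell cycle list. With 1 array left out, Gli2 against SmoM2 alone ran from -2.06 to 0.057, the reversal being without loss replicate 1. No other named gene tested under the alternatives reversed; the cause of these changes was not tested.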
